A study of Mus musculus with 12 samples.

Results

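The Hedgehog pathway genes described here are *Ptch1*, *Smo*, *Sufu*, *Gli1*, *Gli2*, *Gli3*, *Hhip*, *Ihh* and *Dhh*, which are 9 of the 55471 genes in the deposited tables. They were picked by gene symbol, with earlier results of these data known. The data are RNA-seq libraries from mouse J1 embryonic stem cells (ESCs), strain 129S4/SvJae, with or without *Snap29*, which encodes a SNARE protein that acts in membrane fusion. Comparisons were made among 4 groups of 3 libraries each: *Snap29* KO and *Snap29* WT cells on day 14 of differentiation, and *Snap29* KO and *Snap29* WT ESCs on day 0. Cells of day 0 grew on gelatin in medium with fetal bovine serum and leukemia inhibitory factor (LIF). Cells of day 14 had spent 3 days as embryoid bodies in hanging drops without LIF and another 11 days on plates. No Hedgehog ligand, agonist or inhibitor is named for any group. The KO cells carry a CRISPR/Cas9 mutation in exon 2 of *Snap29*. For day 0 the study names 1 clone with an insertion of 1 bp, and for day 14 it names no clone. The libraries are called biological replicates, but no source used here says whether they came from separate cultures, so p-values measure the spread between libraries and not between clones.

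Hedgehog ligands are secreted proteins that bind *Ptch1*, a membrane protein that otherwise holds *Smo* inactive. Once released, *Smo* acts in the primary cilium to free the Gli transcription factors from *Sufu*. In vertebrates *Gli2* is the main activator, *Gli3* acts largely as a repressor, and *Gli1* is an activator that is itself a target gene of the pathway. *Ptch1* and *Hhip*, both of which bind ligand, are target genes too, so that transcripts of *Gli1* and *Ptch1* are a customary readout of pathway output.

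Each library held 16638790 to 19226488 fragments assigned to genes. Levels are FPKM, fragment counts scaled to gene length and to the depth of the library, and changes are on the log2(FPKM + 0.1) scale, which understates the change of low genes. Changes were tested with limma across all genes that reached 0.1 FPKM in 3 or more of the libraries compared, a filter that all 9 genes passed in every comparison. A change was called at a Benjamini-Hochberg adjusted p under 0.05. *Snap29* itself stood at 1.87 to 2.31 FPKM in KO cells of day 14 against 8.09 to 9.88 FPKM in WT cells of day 14, and at 0.415 to 0.657 FPKM in KO ESCs against 5.51 to 6.59 FPKM in WT ESCs. *Atrx*, an X-linked chromatin remodeller named after its values were seen, stood at no more than 0.178 FPKM in any KO library and at 6.24 to 13.3 FPKM in WT libraries. KO and WT cells thus differed in more than *Snap29*, and the loss of *Snap29* and the other differences between the lines cannot be told apart in any KO against WT value given here. *Pou5f1*, a defining marker of ESCs, stood at 138 to 152 FPKM in KO cells of day 14, at 98.2 to 124 FPKM in WT cells of day 14, at 433 to 485 FPKM in KO ESCs and at 526 to 551 FPKM in WT ESCs. WT replicate 3 of day 14 lay apart from the other WT libraries of that day. On the first principal component of the 6 day 14 libraries, which held 53.4% of the variance, it scored −3.56, against 19.2 to 41.0 in KO libraries and −35.6 and −50.2 in WT replicates 1 and 2. The day 14 values that it moved are also given without it.

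Among ESCs, *Ptch1* and *Gli1* fell and *Smo* rose in KO cells, so that 3 of the 9 genes were called, where 21.4% of all 19238 genes tested were called (11% higher and 10.4% lower). Among cells of day 14, none of the 9 was called between KO and WT, where 2.34% of 20506 genes were (0.883% lower). That share was unstable, since the 298 higher and 181 lower genes behind it became 1804 and 1025 without WT replicate 3, 16 to 52 and 28 to 42 without any other single library of day 14, and 3517 and 2531 with library weights. By limma 2 of the 9, *Ptch1* and *Gli3*, had an unadjusted p under 0.05 there, and with library weights in the fit 4 were called, *Ptch1*, *Gli1*, *Gli2* and *Gli3*, all lower in KO. Between day 14 and day 0, *Ptch1*, *Sufu*, *Gli1* and *Gli2* fell in KO cells, which is 4 of 9 where 63.3% of 20347 genes were called, 33.5% higher and 29.8% lower. The same comparison in WT cells called 5 of 9, with *Ptch1*, *Sufu*, *Gli1* and *Gli2* lower and *Gli3* higher, where 55.5% of 20326 genes were called, 29% higher and 26.4% lower. On TPM values the calls on all genes split into 1494 higher and 606 lower on day 0, 160 higher and 231 lower on day 14, and 6552 higher and 3422 lower between the days in WT cells. The libraries of KO and WT did not overlap for 5 of the 9 on day 0, where they did not for 39.9% of all genes, and for 2 of the 9 on day 14, where they did not for 26.5%. Those of day 14 and day 0 did not overlap for 5 of the 9 in KO cells and 8 in WT cells, where they did not for 68.5% and 64.2% of all genes. The median change of the 9 genes was −0.11 for KO against WT on day 0, where that of all genes was −0.00434, and −0.60 on day 14, where that of all genes was 0.0279. It was −0.25 for day 14 against day 0 in KO cells, where that of all genes was 0.0133, and −0.53 in WT cells, where that of all genes was 0.00322. The comparisons share libraries, so their values are given side by side and not as separate evidence.

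**Figure D1:**
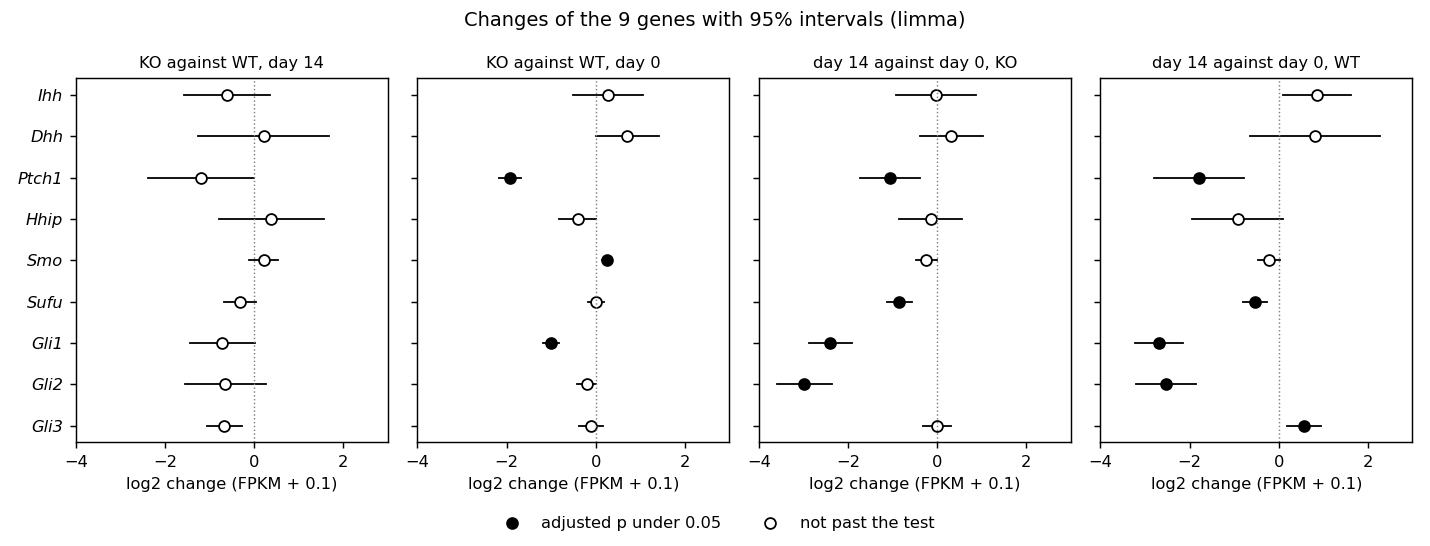
Change of each of the 9 genes on the log2(FPKM + 0.1) scale (x axis) in the 4 comparisons, with 95% limma intervals, 3 libraries per group. Filled points passed an adjusted p of 0.05, which are 0 genes for KO against WT on day 14, 3 on day 0, 4 for day 14 against day 0 in KO cells and 5 in WT cells. In that order, 2.34%, 21.4%, 63.3% and 55.5% of all genes tested passed.

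The 9 genes are spread over 7 chromosomes, and the files place them as the GENCODE vM21 annotation of mm10 does. Promoter windows of 300 bases, from 250 before to 50 after the RefSeq transcript start in GRCm38.p6, were at hand for 8 of the 9 and not for *Gli1*. The windows of *Ptch1* and *Gli2*, which fell by day 14 in both genotypes, of *Gli3*, which rose in WT cells, and of *Smo*, which rose in KO ESCs, are shown 5′ to 3′ on the gene's strand, with GC boxes (GGGCGG or its reverse complement CCGCCC) in capitals. They lie at chr13:63565686-63565985 (minus strand) for *Ptch1*, chr1:119053570-119053869 (minus strand) for *Gli2*, chr13:15463473-15463772 (plus strand) for *Gli3* and chr6:29735247-29735546 (plus strand) for *Smo*.
Ptch1: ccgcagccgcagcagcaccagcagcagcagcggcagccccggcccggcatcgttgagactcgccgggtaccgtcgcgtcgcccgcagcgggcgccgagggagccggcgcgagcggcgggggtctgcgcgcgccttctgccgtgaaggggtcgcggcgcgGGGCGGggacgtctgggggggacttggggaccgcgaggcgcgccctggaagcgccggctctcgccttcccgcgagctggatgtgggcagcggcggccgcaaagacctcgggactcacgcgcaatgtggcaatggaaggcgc
Gli2: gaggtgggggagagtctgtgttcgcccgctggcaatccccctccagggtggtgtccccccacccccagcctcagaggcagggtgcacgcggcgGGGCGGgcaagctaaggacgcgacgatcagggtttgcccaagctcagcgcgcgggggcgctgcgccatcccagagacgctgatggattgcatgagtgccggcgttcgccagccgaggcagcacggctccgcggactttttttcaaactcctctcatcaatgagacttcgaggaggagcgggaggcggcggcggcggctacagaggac
Gli3: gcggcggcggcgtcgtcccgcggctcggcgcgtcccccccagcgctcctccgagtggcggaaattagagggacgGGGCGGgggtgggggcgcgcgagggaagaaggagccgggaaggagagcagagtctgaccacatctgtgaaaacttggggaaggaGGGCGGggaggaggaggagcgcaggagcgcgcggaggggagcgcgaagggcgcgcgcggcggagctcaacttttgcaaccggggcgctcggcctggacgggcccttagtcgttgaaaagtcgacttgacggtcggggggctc
Smo: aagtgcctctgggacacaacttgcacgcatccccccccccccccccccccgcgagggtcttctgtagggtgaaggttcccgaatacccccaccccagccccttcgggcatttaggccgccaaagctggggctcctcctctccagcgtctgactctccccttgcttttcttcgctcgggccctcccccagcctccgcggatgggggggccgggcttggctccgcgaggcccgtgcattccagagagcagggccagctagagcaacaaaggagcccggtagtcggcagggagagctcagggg
The *Ptch1* window is set on a transcript start that lies 7863 bases inside the gene as the files define it, and that of *Gli3* on a start 488 bases inside. A GC box stood in 7 of the 8 windows, *Smo* being the exception, where 35.7% of all 32851 RefSeq windows of this length held one. The *Ptch1* window held 1 and the *Gli3* window 2. The Gli consensus TGGGTGGTC, searched on both strands, matched in 0 of 8 windows and in 0.253% of all windows. With a free base at the fifth position (TGGGNGGTC) it also matched in 0 of 8, and in 0.977% of all windows. TATAAA matched in 0 of 8 and in 13.6% of all. GC content was 56.3% to 76.3% in the 8 windows, with the *Ptch1* window at the top, and the median over the 8, 69.3%, compares with 52.7% over all windows. These windows hold 12 to 47 CpG sites, with a median of 29, and the median over all windows was 7.

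The ligand genes were represented by few fragments. *Ihh*, the Hedgehog ligand known from cartilage and gut (chr1:74945315-74951672 in mm10), stood at 0.287, 0.0838 and 0.0704 FPKM in KO cells of day 14 and at 0.215, 0.329 and 0.213 FPKM in WT cells of day 14. In KO ESCs it stood at 0.168, 0.0940 and 0.149 FPKM, and in WT ESCs at 0.0381, 0.114 and 0.143 FPKM. These levels rest on 2 to 21 fragments per library, and no comparison of *Ihh* passed the test. The WT libraries of day 14 all lay above the WT ESCs (log2 change 0.85, SE 0.32, adjusted p = 0.0589). This change was called on TPM values (adjusted p = 0.0466), by voom on fragments (adjusted p = 0.0476) and with library weights (adjusted p = 0.0327). For *Ihh*, KO against WT gave −0.60 on the log2 scale on day 14 (adjusted p = 0.435) and 0.28 on day 0 (adjusted p = 0.599), with overlapping groups on both days. The genes closest to *Ihh* over the 12 libraries by Pearson's r of log2 values were *Cxcr4* (0.845), *Zfp791* (0.844), *Gys1* (0.787), *Gm1673* (0.774) and *Fam171a2* (0.756), a description that rests on those few fragments.

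*Dhh*, the ligand known from Schwann and Sertoli cells (chr15:98891152-98898540), stood at 0.467, 0.337 and 0.232 FPKM in KO cells of day 14 and at 0.211, 0.0761 and 0.853 FPKM in WT cells of day 14. KO ESCs had 0.350, 0.208 and 0.206 FPKM of *Dhh*, against 0.172, 0.0791 and 0.0988 FPKM in WT ESCs. All 3 KO ESC libraries lay above all 3 WT ESC libraries, but the change did not pass the test (log2 change 0.71, SE 0.30, adjusted p = 0.146). On day 14 WT replicate 3 was the highest of the 12 libraries, with 75 fragments, and WT replicate 2 the lowest of its day, with 7, and KO against WT gave 0.22 on the log2 scale (SE 0.62, adjusted p = 0.865). *Dhh* shares 3389 bases on the same strand with *Rhebl1*, a small GTPase gene at up to 15.5 FPKM, so its low counts are uncertain.

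**Figure D2:**
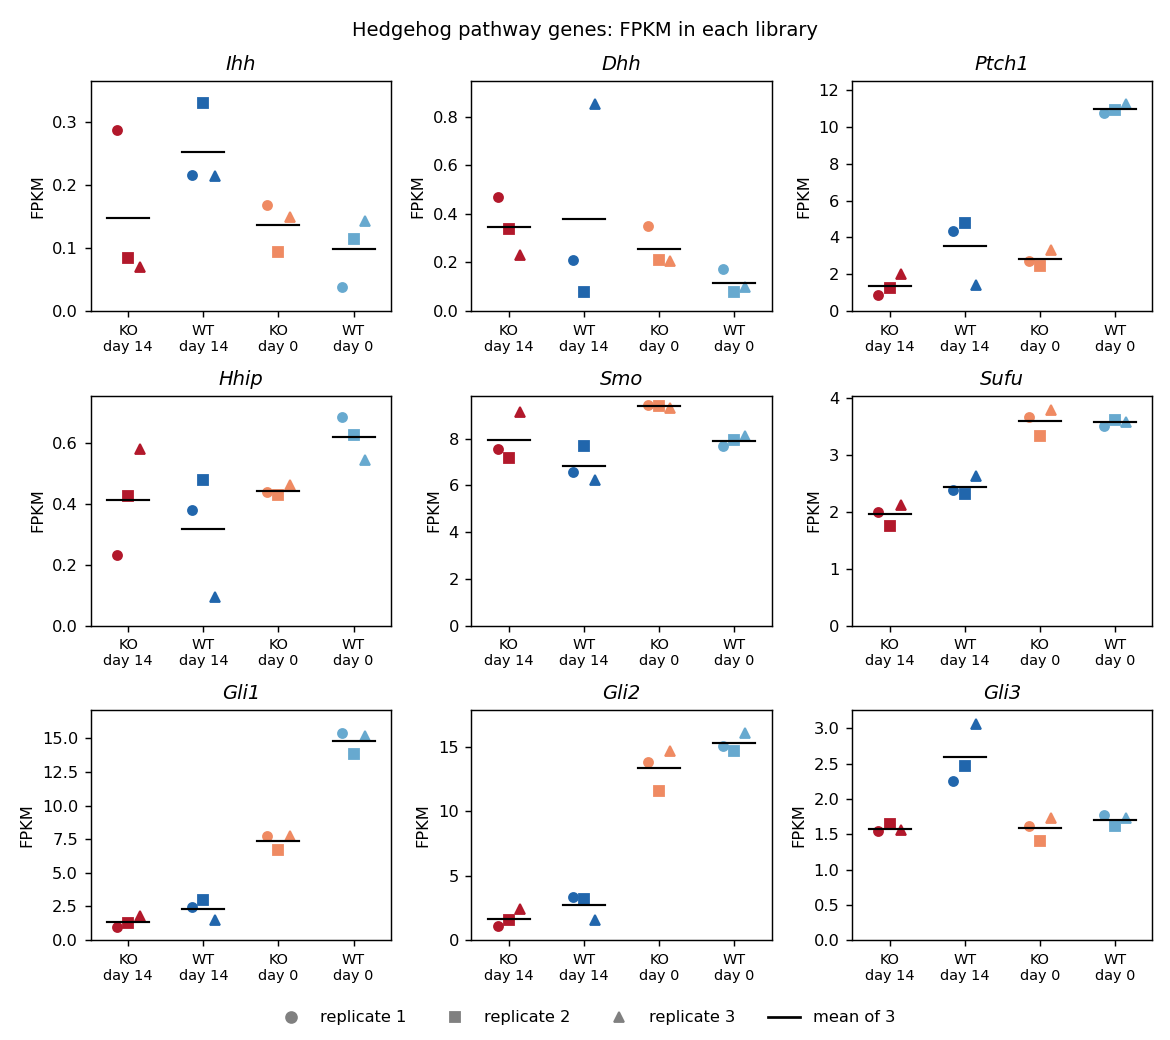
FPKM of each of the 9 genes (y axis, from 0, with its own scale for each gene) in the 12 libraries, by group. Points are libraries, with a symbol for each replicate number, and bars are means of 3. Ptch1 stands at 2.47 to 3.31 FPKM in KO ESCs and at 10.8 to 11.3 FPKM in WT ESCs, while Ihh, Dhh and Hhip stay under 1 FPKM in every library.

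*Ptch1*, the ligand receptor (chr13:63508328-63573598), had the largest change of the 9 genes among ESCs. KO ESCs had 2.74, 2.47 and 3.31 FPKM of *Ptch1*, against 10.8, 10.9 and 11.3 FPKM in WT ESCs, with a wide gap between the groups. Mean *Ptch1* in KO ESCs was 25.9% of that in WT ESCs, and the change of −1.92 on the log2 scale (95% interval −2.17 to −1.67, adjusted p = 9.86e-05) lay at percentile 0.593 of the changes of all genes tested. On day 14 *Ptch1* stood at 0.862, 1.27 and 2.00 FPKM in KO cells and at 4.34, 4.77 and 1.43 FPKM in WT cells. WT replicate 3 fell among the KO libraries, while the other WT libraries lay above them all. KO against WT on day 14 gave −1.19 on the log2 scale (SE 0.50, adjusted p = 0.242), which passed the test without WT replicate 3 (−1.73, SE 0.33, adjusted p = 0.0271).

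Between the days *Ptch1* fell in both genotypes. Its mean on day 14 was 48.5% of that on day 0 in KO cells (log2 change −1.06, SE 0.28, adjusted p = 0.0149) and 32.0% in WT cells (log2 change −1.79, SE 0.42, adjusted p = 0.0101). Without KO replicate 3 of day 0 the fall in KO cells missed the threshold (adjusted p = 0.0555). The KO effect on day 14 minus that on day 0 was 0.73 on the log2 scale (95% interval −0.49 to 1.96, adjusted p = 0.477), so a difference between the days was not detectable with these libraries. Over the 12 libraries the protein-coding genes closest to *Ptch1* by Pearson's r of log2 values were *Plch1* (0.978), *Sms* (0.968), *Alg13* (0.968), *Skil* (0.966) and *Bend3* (0.965), out of 11199 genes with a mean of at least 1 FPKM. The 12 libraries form 4 groups, so these values describe a shared pattern of group levels.

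*Hhip*, a membrane protein that binds ligand and limits its range (chr8:79965851-80058006), stood at 0.232, 0.428 and 0.579 FPKM in KO cells of day 14 and at 0.379, 0.479 and 0.0937 FPKM in WT cells of day 14. In KO ESCs it stood at 0.439, 0.429 and 0.462 FPKM, against 0.685, 0.626 and 0.544 FPKM in WT ESCs. The ESC groups did not overlap, and mean *Hhip* in KO was 71.7% of that in WT, but the change missed the threshold (log2 change −0.40, SE 0.17, adjusted p = 0.158) and of the settings run only voom on fragments called it (−0.47, adjusted p = 0.0358). The day 14 value of 0.38 on the log2 scale (adjusted p = 0.691) turned to −0.10 without WT replicate 3, which had 17 fragments of *Hhip* where the other day 14 libraries had 41 to 98.

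*Smo*, the membrane protein that passes the signal on (chr6:29735503-29761365), stood at 6.21 to 9.45 FPKM in all 12 libraries. KO ESCs had 9.45, 9.41 and 9.30 FPKM of *Smo*, and WT ESCs had 7.69, 7.92 and 8.11 FPKM. The ESC groups did not overlap, and *Smo* rose by 0.24 on the log2 scale (SE 0.045, adjusted p = 0.0104), at 119% of the WT mean. This call was lost on TPM values (0.36, adjusted p = 0.0619), separately in the fit shared by all 4 groups (adjusted p = 0.154), and with a replicate block (adjusted p = 0.0509). Levels on day 14 were 7.54, 7.17 and 9.12 FPKM in KO cells and 6.56, 7.68 and 6.21 FPKM in WT cells, which overlapped (log2 change 0.22, SE 0.14, adjusted p = 0.416). The means of day 14 were 84.6% of those of day 0 in KO cells (adjusted p = 0.0629) and 86.2% in WT cells (adjusted p = 0.125). In both genotypes every library of day 14 lay below every library of day 0. Other settings with all libraries called the fall 3 times in KO cells (adjusted p down to 0.00504) and 1 time in WT cells (adjusted p = 0.0112). Without KO replicate 3 of day 14 *Smo* was called lower in KO cells of day 14 (−0.35, adjusted p = 0.00324), and without WT replicate 2 of day 14 it was called lower in WT cells (−0.31, adjusted p = 0.0339).

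*Sufu*, which holds Gli proteins in the cytoplasm (chr19:46396896-46488804), overlapped between the genotypes among ESCs. It stood at 3.66, 3.33 and 3.79 FPKM in KO ESCs, against 3.51, 3.62 and 3.58 FPKM in WT ESCs (log2 change 0.01, 95% interval −0.17 to 0.19, adjusted p = 0.954). KO cells of day 14 had 1.99, 1.75 and 2.12 FPKM of *Sufu*, and WT cells of day 14 had 2.38, 2.31 and 2.63 FPKM. These groups did not overlap, yet the change of −0.31 on the log2 scale (SE 0.15) missed the threshold (adjusted p = 0.3004). Between the days *Sufu* fell, to 54.3% of the day 0 mean in KO cells (log2 change −0.85, SE 0.12, adjusted p = 6.13e-04) and to 68.3% in WT cells (log2 change −0.53, SE 0.12, adjusted p = 0.00711). The fall in WT cells was lost on TPM values (−0.33, adjusted p = 0.134), which moved the median of all genes in that comparison by 0.207.

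*Gli1*, the activator that is also a target gene (chr10:127329882-127341974), fell in KO against WT ESCs and again between the days. KO ESCs had 7.74, 6.67 and 7.77 FPKM, against 15.4, 13.8 and 15.2 FPKM in WT ESCs, so every KO library lay below every WT library. The change of −0.99 on the log2 scale (95% interval −1.17 to −0.81, adjusted p = 3.38e-04) lay at percentile 3.63 of all genes. On day 14 *Gli1* stood at 0.998, 1.26 and 1.81 FPKM in KO cells and at 2.43, 2.95 and 1.52 FPKM in WT cells, on 97 to 168 fragments in KO libraries and 152 to 308 in WT libraries. Here KO replicate 3 and WT replicate 3 crossed, and the change of −0.71 on the log2 scale (SE 0.31, adjusted p = 0.251) did not pass the test with them or without WT replicate 3 (−0.97, adjusted p = 0.0623).

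By day 14 the *Gli1* mean was 18.3% of the day 0 mean in KO cells (log2 change −2.40, SE 0.20, adjusted p = 5.71e-05) and 15.5% in WT cells (log2 change −2.68, SE 0.23, adjusted p = 1.05e-04). The KO effect of *Gli1* on day 14 minus that on day 0 was 0.28 on the log2 scale (95% interval −0.44 to 1.00, adjusted p = 0.662). Among the genes closest to *Gli1* over the 12 libraries were *Naf1* (r = 0.995), *Asxl1* (0.993) and *Acin1* (0.992). *Gli1* overlaps *Arhgap9* by 62 bases on the opposite strand, and whether the counting used strand is not given in the sources used here.

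*Gli2*, the main activator of the family (chr1:118834132-119053619), passed the test between days and not between genotypes. Its levels were 1.09, 1.52 and 2.41 FPKM in KO cells of day 14, against 13.8, 11.6 and 14.7 FPKM in KO ESCs (12.6% of the day 0 mean, log2 change −2.98, SE 0.26, adjusted p = 6.67e-05). In WT cells of day 14 they were 3.32, 3.22 and 1.53 FPKM, against 15.1, 14.7 and 16.0 FPKM in WT ESCs (17.6% of the day 0 mean, log2 change −2.54, SE 0.28, adjusted p = 3.50e-04). No library of day 14 came near those of day 0. Between genotypes *Gli2* gave −0.20 on the log2 scale among ESCs (adjusted p = 0.176, called by voom on fragments at adjusted p = 0.0381) and −0.64 on day 14 (SE 0.38, adjusted p = 0.384; −0.99 without WT replicate 3, adjusted p = 0.0864).

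*Gli3*, which acts largely as a repressor (chr13:15463235-15730026), took another course. It stood at 1.54, 1.65 and 1.56 FPKM in KO cells of day 14 and at 2.25, 2.46 and 3.06 FPKM in WT cells of day 14. The ESC levels of *Gli3* were 1.62, 1.40 and 1.73 FPKM in KO and 1.78, 1.62 and 1.73 FPKM in WT, which overlapped. In WT cells *Gli3* rose between the days (152% of the day 0 mean, log2 change 0.56, SE 0.16, adjusted p = 0.0207), but the call was lost without any 1 of the WT ESC replicates 1 to 3 (adjusted p = 0.0559 to 0.0748). In KO cells the day 14 mean was 99.9% of the day 0 mean (log2 change 0.00, 95% interval −0.31 to 0.32, adjusted p = 0.988). KO and WT cells of day 14 did not overlap in *Gli3* (log2 change −0.67, SE 0.17, adjusted p = 0.0932), and the call was made where all 4 groups shared the fit (adjusted p = 0.0105). Without WT replicate 3 the value was −0.55 (adjusted p = 0.0623). The KO effect on day 14 minus that on day 0 was −0.56 on the log2 scale (SE 0.19, adjusted p = 0.107). None of the 9 genes passed this test of the difference between the days, where 7.13% of 22913 genes did (966 higher and 667 lower, but 2404 and 1968 without WT replicate 3 of day 14, and 286 and 848 on TPM values), and *Gli3* alone of the 9 had an unadjusted p under 0.05 in it by limma.

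The Gli genes can be set side by side within a library, since FPKM is per length. Their summed FPKM was 3.63 to 5.78 in KO cells of day 14, 6.11 to 8.63 in WT cells of day 14, 19.7 to 24.2 among KO ESCs and 30.1 to 33.0 among WT ESCs. *Gli1* made up 33.2% ± 0.937 of that sum in KO ESCs and 46.6% ± 0.981 in WT ESCs (SD, n = 3 each), a difference of −13.4 percentage points (two-sided exact permutation test, p = 0.1). With 3 libraries against 3 this test cannot give a p below 0.1, so it cannot pass the threshold. On day 14 the *Gli1* share was 29.0% ± 1.97 in KO cells and 29.8% ± 4.65 in WT cells (exact permutation test, p = 0.9, n = 3 each). Day 14 minus day 0 came to −4.12 percentage points in KO cells and to −16.8 percentage points in WT cells, both without overlap (exact permutation test, p = 0.1, adjusted p = 0.133 over the 4 comparisons). The *Gli3* share was 26.9% to 42.5% in KO cells of day 14, against 5.24% to 7.16% in all libraries of day 0. It was 28.2% and 28.6% in WT replicates 1 and 2 of day 14 and 50.045% in WT replicate 3.

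**Figure D3:**
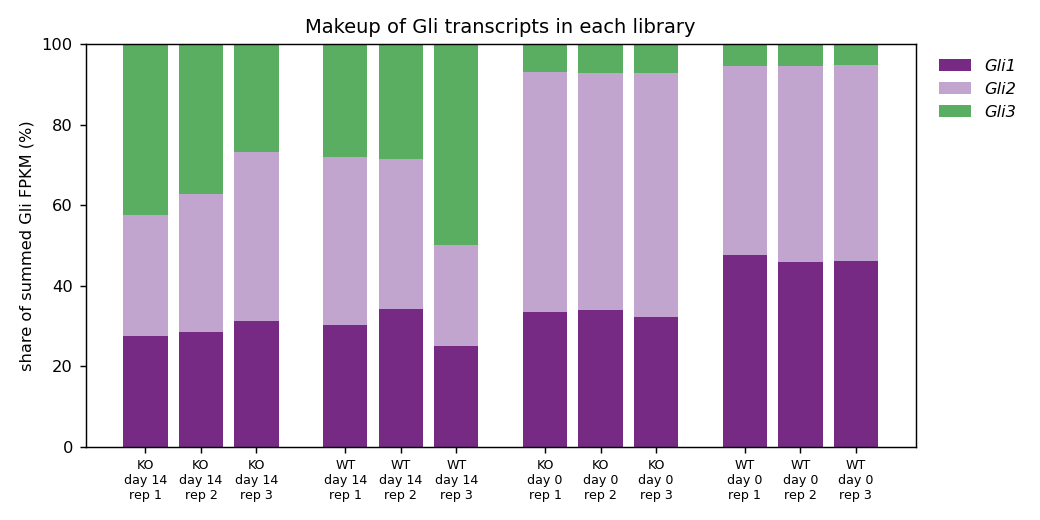
Share of Gli1, Gli2 and Gli3 in their summed FPKM (y axis, percent) in each of the 12 libraries, as stacked bars. The Gli1 share is 32.1% to 33.9% among KO ESCs and 45.9% to 47.7% among WT ESCs, and Gli3 takes 26.9% to 50.045% in the libraries of day 14.

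The 6 libraries of day 14 stood in the same order for *Ptch1* and *Gli1*: WT replicates 2 and 1, KO replicate 3, WT replicate 3, and KO replicates 2 and 1. *Gli2* had that order with WT replicates 1 and 2 exchanged. For *Gli3* the order differed, with WT replicate 3 on top. Among levels of the 9 genes in WT ESCs, *Gli2* (15.3 FPKM) and *Gli1* (14.8 FPKM) came first and overlapped, followed by *Ptch1*, *Smo*, *Sufu*, *Gli3* and *Hhip* with no overlap between neighbours, and then by *Dhh* and *Ihh*, which overlapped. KO ESCs had the order *Gli2*, *Smo*, *Gli1*, *Sufu*, *Ptch1*, *Gli3*, *Hhip*, *Dhh* and *Ihh*, with no overlap between neighbours. In cells of day 14 *Smo* stood above the others in KO (7.94 ± 1.04 FPKM) and in WT (6.81 ± 0.771 FPKM; SD, n = 3 each). In both genotypes *Ptch1*, *Sufu* and the Gli genes came next, each overlapping its neighbour in the order, and *Hhip*, *Dhh* and *Ihh* last.

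Wider lists of pathway genes, which include 7 of the 9, were read by role. Of 9 receptors and coreceptors tested among ESCs, 1, *Smo*, was higher and 4 were lower in KO, where 11% of all genes were higher and 10.4% lower. Among the lower ones besides *Ptch1* were *Gpc3*, a glypican that binds ligand, and *Lrp2*, an endocytic receptor. *Gpc3* changed by −0.99 on the log2 scale (SE 0.039, adjusted p = 3.70e-05) and *Lrp2* by −1.06 (SE 0.088, adjusted p = 4.61e-04). The median of this list was −0.40, which is the value of *Hhip* itself, a gene not called, where that of all genes was −0.00434.

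Of the 41 genes listed as known Hedgehog targets, 21 passed the filter among ESCs. In KO, 3 of these were higher and 10 lower, with a median of −0.40, again the value of *Hhip*. Beside them, 11% of all genes tested were higher and 10.4% lower, with a median of −0.00434. *Ptch1* and *Gli1* are among the 10. *Ptch1*, *Hhip* and the coreceptor genes *Gas1*, *Cdon* and *Boc* are on this list and on the receptor list. The list does not separate targets that the pathway raises from those it lowers. *Ccnd2*, a cyclin of the early cell cycle, stood at 2.15 to 2.41 FPKM in KO ESCs and at 14.4 to 15.0 FPKM in WT ESCs (log2 change −2.65, SE 0.062, adjusted p = 9.38e-06). *Mycn*, a growth-promoting transcription factor, fell by 1.16 on the log2 scale and *Prdm1*, a transcriptional repressor, by 2.00. *Bmp4*, a ligand of another pathway, went the other way, at 16.3 to 17.0 FPKM in KO ESCs against 2.91 to 3.72 FPKM in WT ESCs (log2 change 2.36, SE 0.097). These genes answer to other pathways as well.

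Genes that carry the signal inside the cell were read next, against the 21.4% of all genes called among ESCs. Of 28 transduction genes tested, *Mgrn1*, a ubiquitin ligase, was higher (log2 change 0.36) and *Csnk1a1*, a casein kinase, lower (−0.16), and the *Csnk1a1* call was lost on TPM values (−0.05, adjusted p = 0.810) and with WT replicate 2, WT replicate 3 or KO replicate 1 of day 0 left out (adjusted p = 0.0601 to 0.0827). Of 50 genes of the primary cilium, 1 was higher and 5 were lower, with a median of −0.03. Among the lower ones were *Bbs1*, of the ciliary BBSome (log2 change −0.85), *Cc2d2a*, of the ciliary transition zone (−0.80, lost where all 4 groups shared the fit at adjusted p = 0.0698), and *Kifap3*, of the kinesin-II motor (−0.34, lost on TPM values at adjusted p = 0.264). Of 6 genes for ligand release tested, *Scube3*, a secreted glycoprotein, was lower (−0.98).

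On day 14 KO and WT differed by the test in 0 of 9 receptor genes, 0 of 8 ligand release genes, 0 of 28 transduction genes and 0 of 52 cilium genes. Over all genes 2.34% differed, with 0.883% lower in KO. Of 35 target genes 1 was lower, *Hand2*, a transcription factor of heart and limb, at 0.413 to 0.743 FPKM in KO cells and 2.01 to 2.79 FPKM in WT cells (log2 change −1.97, SE 0.26, adjusted p = 0.0211). That *Hand2* call was lost when WT replicate 1, WT replicate 2, KO replicate 2 or KO replicate 3 of day 14 was left out (adjusted p up to 0.0967). The median over the 35 target genes was −0.61 where that of all genes was 0.0279.

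**Figure D4:**
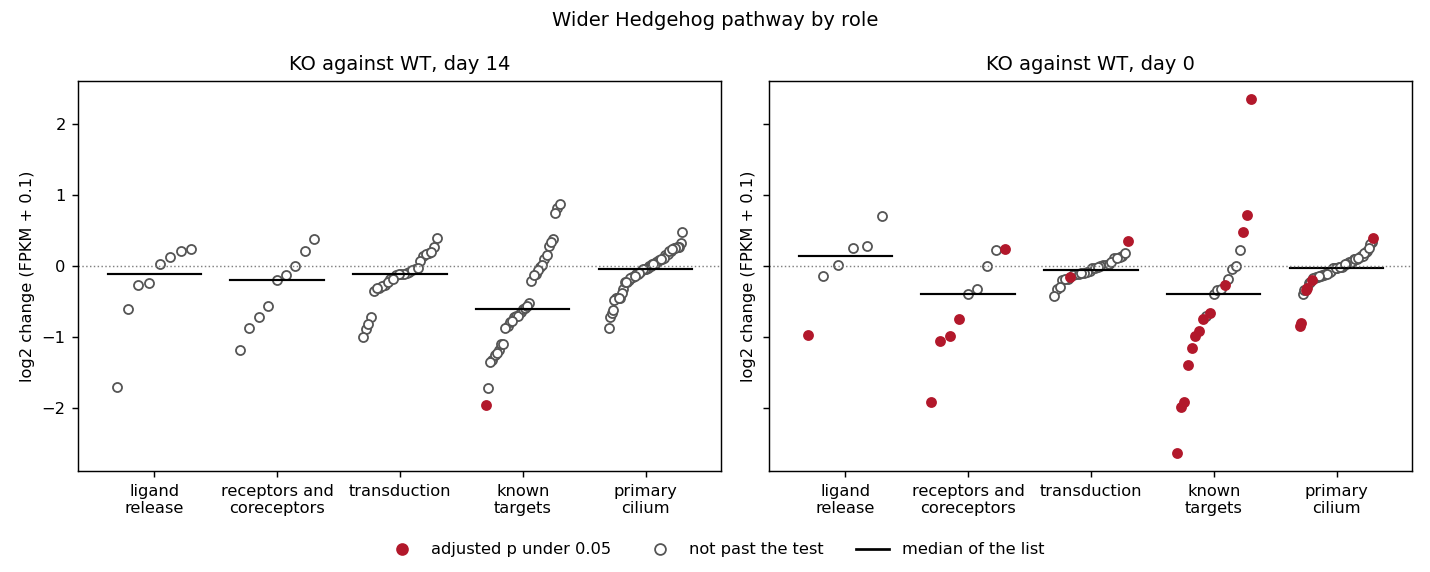
Change in KO against WT on the log2(FPKM + 0.1) scale (y axis) of each gene in the wider pathway lists, by role, on day 14 (left) and day 0 (right). Filled points passed an adjusted p of 0.05 and bars are list medians. Of the receptor genes 0 of 9 passed on day 14 and 5 of 9 on day 0, where 2.34% and 21.4% of all genes passed.

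Between the days the coreceptor genes *Gas1* and *Cdon* rose in both genotypes. *Gas1*, a coreceptor anchored at the cell surface, stood at 21.7 to 36.2 FPKM in KO cells of day 14, against 0.459 to 0.658 FPKM in KO ESCs (log2 change 5.55). In WT cells it stood at 33.6 to 55.1 FPKM on day 14, against 0.450 to 0.687 FPKM on day 0 (6.10). *Cdon*, another coreceptor, rose by 3.18 in KO cells and 2.99 in WT cells. Of 34 target genes tested, 21 rose and 8 fell in KO cells, where 33.5% of all genes rose and 29.8% fell, and 19 rose and 10 fell in WT cells, where 29% rose and 26.4% fell. Among those that rose were *Igf2*, a growth factor (6.41 in KO and 7.02 in WT), and *Osr1*, a transcription factor of intermediate mesoderm (6.02 in KO and 6.01 in WT), whose ESC libraries were at or near 0 FPKM, so that these fitted values depend on the added 0.1. Among ESCs only 21 of the 41 listed targets passed the filter. A target that passed only with its day 14 libraries could hardly fall, so the filter leans these counts toward rises. The targets that rose also include *Gas1*, *Cdon* and *Boc*, which are on the receptor list too.

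Summed markers of several cell types were lower in KO than in WT cells of day 14, beside the day 14 values of the 9 genes. Summed FPKM of 12 trophoblast markers was 161 to 185 in KO libraries, and 373, 525 and 301 in WT replicates 1, 2 and 3. For 14 mesenchyme markers it was 76.4 to 87.0 in KO and 131 to 160 in WT, for 12 endothelial markers 17.0 to 21.8 in KO and 28.1 to 63.4 in WT, and for 19 visceral and yolk sac endoderm markers 8.12 to 9.93 in KO and 16.7 to 56.9 in WT. WT replicate 3 had the lowest WT sum in each of these lists. Lower in KO by the test were 6 of 12 trophoblast, 1 of 14 mesenchyme, 2 of 11 endothelial and 2 of 17 endoderm markers tested, with 0 higher. Of these, *Prl7d1*, *Ctsq*, *Tpbpa* and *Spink1* passed the filter only with their WT libraries, so they could hardly be called higher. Among all genes tested on day 14, 2.34% were called and 0.883% were lower. With 1 library left out, the calls on the mesenchyme marker (*Col1a1*, adjusted p up to 0.146), the endothelial markers (*Cdh5*, up to 0.0838, and *Flt1*, up to 0.111) and the endoderm markers (*Apoa1*, up to 0.0846, and *Spink1*, up to 0.123) were each lost in most of the 6 fits. The endoderm marker *Apoc2* was at 0 in every library of day 14. Of the markers for sources of the ligands, Schwann and Sertoli markers summed to 14.4 to 15.7 FPKM in KO and 19.5 to 25.2 FPKM in WT (1 of 7 lower) and cartilage markers to 6.99 to 7.52 FPKM in KO and 8.54 to 14.9 FPKM in WT (1 of 9 lower). The lower cartilage marker, *Col9a1*, also passed the filter only with its WT libraries. Notochord and floor plate markers summed to 25.7 to 29.7 FPKM in KO and 15.3 to 22.6 FPKM in WT (0 of 7 called), a sum led by *Nog*, a secreted BMP antagonist, at 21.3 to 24.9 FPKM in KO and 9.15 to 16.8 FPKM in WT, while the median change of the list was −0.71. For 10 pluripotent cell markers the sum was 3143 to 3642 FPKM in KO and 2247 to 3046 FPKM in WT (0 called). In such bulk libraries fewer cells of a type and less RNA per cell cannot be told apart, and the part of these cell types in the day 14 results was not tested.

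Marker sums were also read among ESCs, where 21.4% of all genes were called (11% higher and 10.4% lower). Trophoblast markers summed to 8.67 to 9.78 FPKM in KO and 20.3 to 21.4 FPKM in WT, with *Prl3d1*, *Prl2c2*, *Prl7d1*, *Ctsj* and *Tpbpa* at 0 in both. Only 4 of the 12 passed the filter, and 2 of these were lower in KO and 0 higher. The lower ones were *Tfap2c* (log2 change −1.18) and *Ascl2* (−1.30, adjusted p up to 0.0747 with a library left out). Endoderm markers summed to 11.4 to 13.6 FPKM in KO and 18.8 to 21.5 FPKM in WT, and endothelial markers to 14.9 to 15.6 FPKM in KO and 17.8 to 19.7 FPKM in WT. Of 11 endoderm markers tested 3 were lower in KO, with *Spink1* at −6.13 on the log2 scale, and 1 was higher, *Trf* (1.21). *Spink1* passed the filter here only with its WT libraries. Of 7 endothelial markers tested 3 were lower and 0 higher. The 10 pluripotent cell markers summed to 3857 to 4336 FPKM in KO and 3509 to 3721 FPKM in WT, and 4 of them were higher and 2, *Pou5f1* and *Sox2*, lower in KO ESCs. Their part in the ESC results for *Ptch1*, *Gli1* and *Smo* was not tested.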

How the data were processed

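Gene tables of 12 poly(A) RNA-seq libraries were analysed. Per the labels and the study's methods, the authors mapped reads to mm10 with HISAT2 2.0.5, counted fragments per gene with featureCounts 1.5.0-p3, and deposited FPKM values made from counts and gene lengths. The annotation release and strand setting are not given in the sources used here. Of 55471 gene IDs, 99.4% were in GENCODE vM21. FPKM times gene length gave whole fragments (within 0.001) for 100% of values, which set each library's depth (16638790 to 19226488). Counting error limits the precision of low genes.

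log2(FPKM + 0.1) was fitted with limma 3.58.1 in R 4.3.3 (lmFit, eBayes with trend), with 2 groups per fit and genes at 0.1 FPKM or more in 3 libraries. Genotype by day was tested over all 12 libraries. p-values were adjusted by Benjamini-Hochberg over all genes tested. Scripts were tested on simulated data. No 2 libraries were identical (66 pairs).

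Named were all 9 genes, *Snap29*, up to 4 called genes per list and comparison with the smallest adjusted p, and the 5 genes most correlated with each of *Ptch1*, *Gli1* and *Ihh* (protein-coding, mean of at least 1 FPKM). Some named genes are not reported here. Members and lists were chosen with earlier results of these data known. The main fits did not pair libraries by replicate number. Deviations from group means correlated at −0.427 to 0.0773 between libraries of the same number. Between the days, WT replicates 2 and 3 correlated best with their own number. With 3 libraries per group this check is too weak to exclude pairing. Alternatives were pseudocounts of 1 and 0.01, no filter, a filter of 1 FPKM, median-ratio scaling, TPM, voom on fragments, library weights, 1 fit of all groups, a replicate block, and leaving out each library. Promoters are from RefSeq (GRCm38.p6).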

Additional observations from a re-analysis of the deposited data

How the results depend on the processing

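Of the results on single members of the 9, most of them not called, 301 of 324 kept direction and side of the threshold when 1 library was left out, and 402 of 426 under the other settings. KO against WT on day 0 called 3 of the 9 and 5 by voom on fragments. On day 14 it called 0, and 4 with library weights (*Ptch1*, *Gli1*, *Gli2* and *Gli3*), 1 with all 4 groups in 1 fit (*Gli3*) and 0 to 1 with a library left out, the 1 being *Ptch1* without WT replicate 3. Day 14 against day 0 in WT cells called 5, and 8 with library weights. The difference between the days called 0, and 2 with library weights (*Sufu* and *Gli2*). Values that turned sign, none of them called, were *Gli3* on day 0 (0.00255 on TPM), *Gli3* between days in KO cells (−0.0400 on TPM and −0.0765 to 0.0655 with a library left out) and *Ihh* between days in KO cells (0.00798 with pseudocount 1 and −0.41 to 0.18 with a library left out). With a library left out, *Sufu* on day 0 ranged over −0.0308 to 0.0607, *Dhh* on day 14 over −0.32 to 0.89, *Hhip* on day 14 over −0.10 to 0.69, *Hhip* between days in KO cells over −0.38 to 0.14, and the differences between days over −1.04 to 0.18 for *Dhh* and −0.131 to 0.0594 for *Smo*. The *Gli1* share differed by −12.1 percentage points on day 0 when fragments were not divided by length, and by −3.20 to 1.42 on day 14 with a library left out. The replicate block called 2, 0, 4, 5 and 0 of the 9, losing *Smo* on day 0 (adjusted p = 0.0509), and called 1290 of all genes lower on day 0 (against 2003), 2 higher and 11 lower on day 14 (against 298 and 181), and 544 higher and 390 lower for the difference between days (against 966 and 667). Without a library, all genes called on day 14 were 1804 higher and 1025 lower (WT replicate 3) or 16 to 52 and 28 to 42 (any other), those for the difference between days 2404 and 1968 (WT replicate 3 of day 14) or 510 to 761 and 352 to 570 (any other), and those lower on day 0 1294 to 1332 (each WT library in turn, and KO replicate 1, which gave 1369 higher). With library weights 3517 were higher and 2531 lower on day 14 and 3261 and 2711 for the difference between days. With 1 fit of all groups 1633 were higher and 1148 lower on day 14, and 1245 and 1143 on day 0. No filter gave 132 higher and 88 lower on day 14. TPM gave 160 higher and 231 lower there, 286 and 848 for the difference between days, 1494 and 606 on day 0 (against 2115 and 2003), and 6552 and 3422 between days in WT cells (against 5903 and 5370). TPM moved the median of all genes by 0.112 on day 0, −0.139 on day 14 and −0.242 in the difference between days. The causes of these changes were not tested. *Ihh*, *Dhh* and *Hhip* rest on 2 to 107 fragments per library, and the 7 to 75 fragments of *Dhh* and 17 to 91 of *Hhip* in WT libraries of day 14 show a spread between libraries as well.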

Other observations

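For day 14 against day 0 the other lists of the pathway are given beside all genes, of which 33.5% rose and 29.8% fell in KO cells and 29% rose and 26.4% fell in WT cells. Of 28 transduction genes tested, 13 rose and 8 fell in KO cells, and 14 rose and 8 fell in WT cells. *Pias1*, a SUMO ligase, rose by 1.23 on the log2(FPKM + 0.1) scale in KO cells and by 1.19 in WT cells, and *Mgrn1* by 0.84 in KO cells and 0.93 in WT cells. *Adcy6*, an adenylate cyclase, rose by 1.96 in KO cells and 2.36 in WT cells, and *Evc*, a ciliary partner of *Smo*, changed by −1.44 in KO cells and −1.48 in WT cells. *Arrb2*, a beta-arrestin, changed by −0.99 in KO cells and −1.02 in WT cells, and *Prkaca*, the catalytic subunit of protein kinase A, by −0.60 in KO cells and −0.51 in WT cells. Of the genes of the primary cilium, 14 of 51 rose and 19 fell in KO cells, and 8 of 52 rose and 14 fell in WT cells. *Rab23*, a small GTPase that restrains the pathway, changed by −0.91 in KO cells and −1.14 in WT cells, and *Inpp5e*, a ciliary lipid phosphatase, by 0.91 in KO cells and 1.28 in WT cells. Of 7 ligand release genes tested, 3 rose and 1 fell in KO cells and 4 rose in WT cells, and *Scube3* rose by 3.73 in KO cells and 2.62 in WT cells. *Scube1*, among the 4 that rose in WT cells, did not pass the filter among ESCs and could hardly fall.

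The KO effect on day 14 minus that on day 0 was called for genes outside the 9. *Hand2* gave −2.16 (SE 0.38, adjusted p = 0.00787), a call lost with pseudocount 0.01 (adjusted p = 0.102) and by voom on fragments (adjusted p = 0.0798). *Bmp4*, higher in KO ESCs, gave −1.49 (SE 0.33, adjusted p = 0.0243), with 28.6, 26.3 and 21.9 FPKM in KO cells of day 14 and 11.1, 10.7 and 22.5 FPKM in WT cells of day 14. Without WT replicate 1 or 2, KO replicate 1 or 3 of day 0, or KO replicate 3 of day 14, the *Bmp4* call was lost (adjusted p up to 0.06004). *Boc*, a coreceptor, gave −1.10 (adjusted p = 0.0493) and *Scube3* 1.11 (adjusted p = 0.0343), and both calls were lost with a replicate block (adjusted p = 0.103 for *Boc* and 0.0642 for *Scube3*) and in most fits that left out a library.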
